A study of Arabidopsis thaliana with 12 samples.

Results

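In root explants kept on shoot-inducing medium with cytokinin, the line labelled CPL4RNAi was compared with wild type across all genes of the authors' deposited table. The comparison holds 33557 features, of which the authors tested 19209, and the folds below are those of CPL4RNAi over wild type, computed from the deposited group values in FPKM (fragments per kilobase of transcript, scaled to the size of the library). A gene was called where its deposited q-value (an adjusted p-value) was at or under 0.05. The study asked how CPL4 bears on the forming of shoots from Arabidopsis thaliana roots, with 12 samples in 4 groups of 3. All groups were root segments of 10-day seedlings that spent 5 days on callus-inducing medium and then 72 hours on shoot-inducing medium, and all were 18 days old. Wild type was Col-0 gl1, and the other genotype is called CPL4RNAi in the sample titles and CPL4 KO in the genotype field. The groups of this comparison received 0.05 mg/L of the cytokinin 2iP (isopentenyladenine), and the groups set beside them received 0 mg/L. The labels give neither the promoter of the construct nor the number of lines, and do not say whether the replicates were separate cultures. The values are 1 per group, with no replicate values and with the depth of the libraries unknown.

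CPL4 belongs to a family of phosphatases that remove phosphates from the repeated tail of RNA polymerase II. Phosphates on that tail are set and removed as the polymerase starts, elongates and ends a transcript. In the culture system used here, auxin first turns root tissue into callus with features of a lateral root primordium, and cytokinin then redirects part of it towards a shoot meristem. Type-A response regulators are early targets of cytokinin signalling. WUS, STM and the CUC genes mark the founding of the shoot meristem.

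The targeted gene was examined first. CPL4 (AT5G58003, chromosome 5, positions 23479804 to 23482048 of TAIR10, protein-coding) had an FPKM of 13.9 in wild type and 32.2 in CPL4RNAi with cytokinin, a log2 fold of 1.21 (SE at most 0.30). It was called higher, with a q of 2.7e-04 in the authors' deposited table, which is the smallest q that table holds. Without cytokinin it had 14.5 and 36.3. The level of CPL4 therefore goes against the label in both media, and each direction below is that of the group labelled CPL4RNAi. The table does not separate reads of the gene from reads of the construct. The other 3 phosphatase genes of the family that were tested were also called higher. CPL3 (AT2G33540) went from 11.8 to 18.3 FPKM (log2 fold 0.64), CPL1 from 22.8 to 30.9 (0.44) and CPL2 from 21.7 to 26.5 (0.29). CPL5 (AT3G19600) was listed at 0 in both groups and was not tested. Of the 4 calls, 2 remained at a q-value of 0.01. Among the kinases that phosphorylate the tail, 4 of 6 were called higher and none lower: CDKD1;1 (0.82), CDKC1 (0.65), CDKD1;3 (0.50) and CDKD1;2 (0.42).

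Across the transcriptome, 49.4% of tested genes were called, 4741 higher (24.7%) and 4752 lower (24.7%). These shares are the background for every count below. The median size of a called log2 fold was 0.64, and 2519 called genes changed at least 2-fold (1129 higher and 1390 lower). At least 4-fold changes were called for 315 higher and 277 lower genes. Standard errors (SE) were worked out from each fold and its deposited p-value, with a median of 0.136 on the log2 scale. For genes with the smallest p of the authors' deposited table, 5e-05, the SE is an upper bound. These errors carry the variance model of the authors' software, since replicate values were not at hand.

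**Figure D1:**
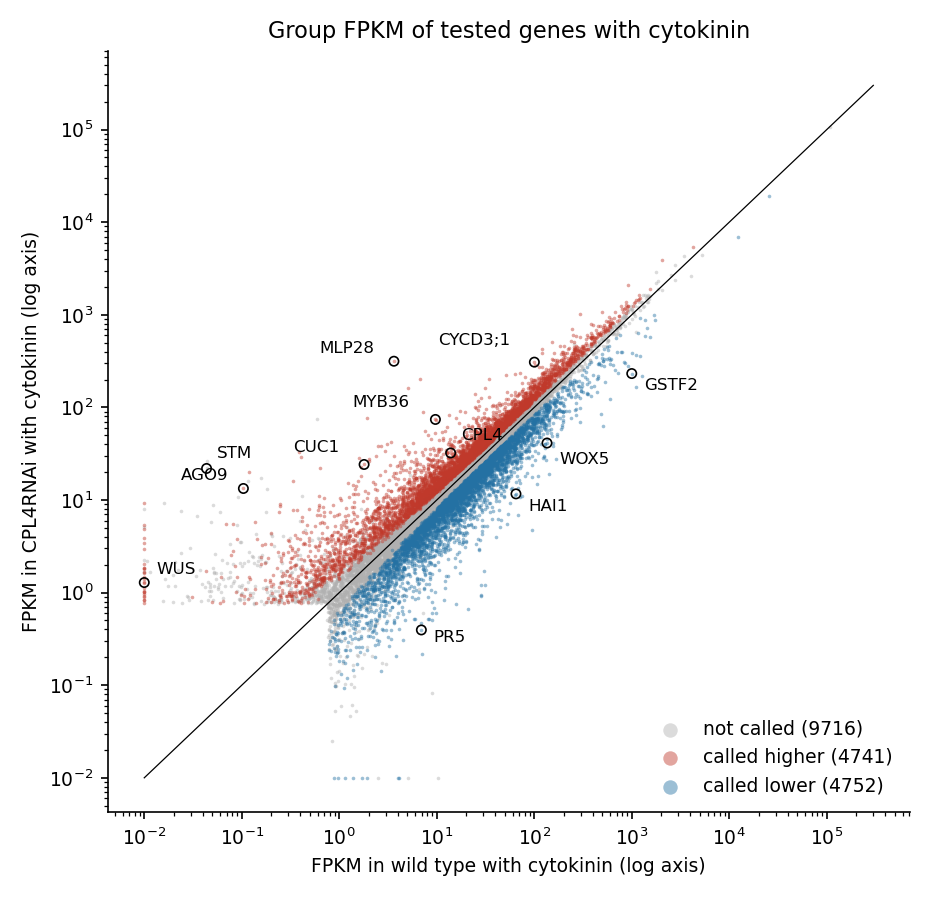
Group FPKM of the 19209 tested genes in wild type (x axis) and CPL4RNAi (y axis), both with cytokinin and on log axes, with genes called higher in red, called lower in blue and not called in grey. Values under 0.01 are drawn at 0.01. The line marks equal values, and CPL4, at 13.9 and 32.2, lies above it.

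The 10 largest called folds above wild type, among genes with at least 5 FPKM in CPL4RNAi, were in genes with low values in wild type. AT1G63210, annotated as a transcription elongation factor Spt6, went from 0.118 to 19.9 FPKM (log2 fold 7.39, SE at most 1.82). AGO9 (AT5G21150), an ARGONAUTE of the small RNA pathway known from ovules, went from 0.104 to 13.3 FPKM, a 128-fold difference. With a pseudocount of 1 FPKM the log2 folds of AT1G63210 and AGO9 were 4.22 and 3.70. MLP28, of the major latex protein family, went from 3.64 to 315 FPKM (6.44, SE at most 1.59). The others of the 10 largest were AT3G28500, a 60S acidic ribosomal protein (6.42), AT2G24255, an F-box protein (6.31), AT5G45990, annotated as a crooked neck protein (6.15), AT5G54560, with a domain of unknown function (6.08), ARI13, a RING/U-box protein (5.56), AT2G19910, of the RNA-dependent RNA polymerase family (5.42), and AT1G23160, of the GH3 family (5.30). All 10 had FPKM values above wild type without cytokinin as well, with 6 of them called higher there, where 44.1% of tested genes were called, 22.5% higher and 21.5% lower. A further 26 called genes were listed at 0 in wild type. The 5 of these with the highest level in CPL4RNAi were AT1G04660 and AT4G30450, both glycine-rich proteins (9.25 and 4.83 FPKM), AT1G27820 (5.31), AT1G77655 (3.89) and the SKP1-like gene SK12 (3.40).

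Among the 10 largest folds below wild type, 4 were in germin-like or cupin genes of 1 tandem array, and 2 in genes of late embryogenesis abundant proteins. AT5G10760, an aspartyl protease, went from 7.11 to 0.217 FPKM (log2 fold -5.03, SE at most 1.24). The late embryogenesis abundant genes AT5G66780 and LEA4-5, of the kind that protects cells during drying, went from 20.8 to 0.658 (-4.98) and from 15.9 to 0.758 (-4.39). AT1G22160, AT5G63350 and AT1G07985 had log2 folds of -4.94, -4.91 and -4.69. In the array, on chromosome 5 from 15653090 to 15693581 of TAIR10, GER2 (AT5G39190) went from 28.2 to 1.21 FPKM (-4.54), AT5G39120 from 94.7 to 4.71 (-4.33), AT5G39130 from 30.8 to 1.70 (-4.18) and GLP6 (AT5G39100) from 8.96 to 0.507 (-4.14). Germin-like proteins are secreted glycoproteins of the cell wall. The rest of the array was looked up after these values were seen: all 8 of its germin-like and cupin genes were tested and called lower, with a median log2 fold of -4.04, and all 8 were lower without cytokinin too. These genes are close copies, and how the authors' counting divided reads among them is not known. A further 8 called genes were listed at 0 in CPL4RNAi, led by AT5G42223, a defensin-like gene (4.06 FPKM in wild type), AT1G04560 (4.03), the peroxidase AT5G58390 (1.93), the lipid transfer protein gene LTP (1.71) and AT1G30990 (1.38).

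AT1G61280, a gene that lies just after the small nuclear RNA (snRNA) gene U12, went from 5.02 to 161 FPKM. Plant snRNA genes carry an upstream sequence element that is needed for their transcription, and their transcripts are ended by a mechanism of their own. The 100 bases before the start of U12, U2.1 and U2.5 are shown because they hold the element and genes after these snRNA genes were called higher. The element is in capitals (RefSeq TAIR10.1, 5′ to 3′ along the snRNA gene).

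U12 (chr1:22603021-22603120, plus strand): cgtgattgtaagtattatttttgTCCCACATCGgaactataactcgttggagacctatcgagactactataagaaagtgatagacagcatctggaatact
U2.1 (chr1:5758282-5758381, plus strand): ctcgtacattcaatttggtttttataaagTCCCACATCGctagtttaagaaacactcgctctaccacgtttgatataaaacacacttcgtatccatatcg
U2.5 (chr5:2974914-2975013, plus strand): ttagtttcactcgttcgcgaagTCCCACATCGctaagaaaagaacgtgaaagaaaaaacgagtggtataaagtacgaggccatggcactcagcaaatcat

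The element, searched as the run of capitals shown and on the strand of the gene alone, was present in the 100 bases before 29 of 82 annotated snRNA genes (35.4%) and before 8 of 27444 protein-coding genes (0.0292%). AT1G61280 starts 291 bases past U12 and had a log2 fold of 5.00. SYP124, a syntaxin gene 1482 bases past the same snRNA gene, went from 0.173 to 2.11 FPKM (3.61) and was no longer called at a q-value of 0.01. AT1G16825, 280 bases past U2.1, went from 8.50 to 24.2 FPKM (1.51), and MTHSC70-2, a mitochondrial heat shock protein gene 228 bases past U2.5, went from 67.5 to 104 (0.62). Of the 20 genes that start within 2000 bases after an snRNA gene on the same strand, 16 were tested, 7 were called higher and 4 lower, beside a background of 24.7% in each direction. After snRNA genes with the element, 4 of 7 tested genes were higher and 1 lower. After snRNA genes without it, 3 of 9 were higher and 3 lower. Among those higher, AT5G54100, 444 bases past U5.11, went from 6.53 to 11.8 FPKM (0.86). PGK, 1812 bases past U5.9, went from 256 to 453 (0.83). Both folds are above that of MTHSC70-2. AT5G25770, which follows U4.5 and U1.4, both with the element, went from 55.2 to 37.0 FPKM (-0.58). Of 10 snRNA genes tested with cytokinin, 3 were called higher and 2 lower, shares near the background. Without cytokinin 7 of 9 were called higher and 0 lower. U12 went from 283 to 363 FPKM (log2 fold 0.36) and was not called, and U2.5 from 235 to 294 (0.32) and was called higher.

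**Figure D2:**
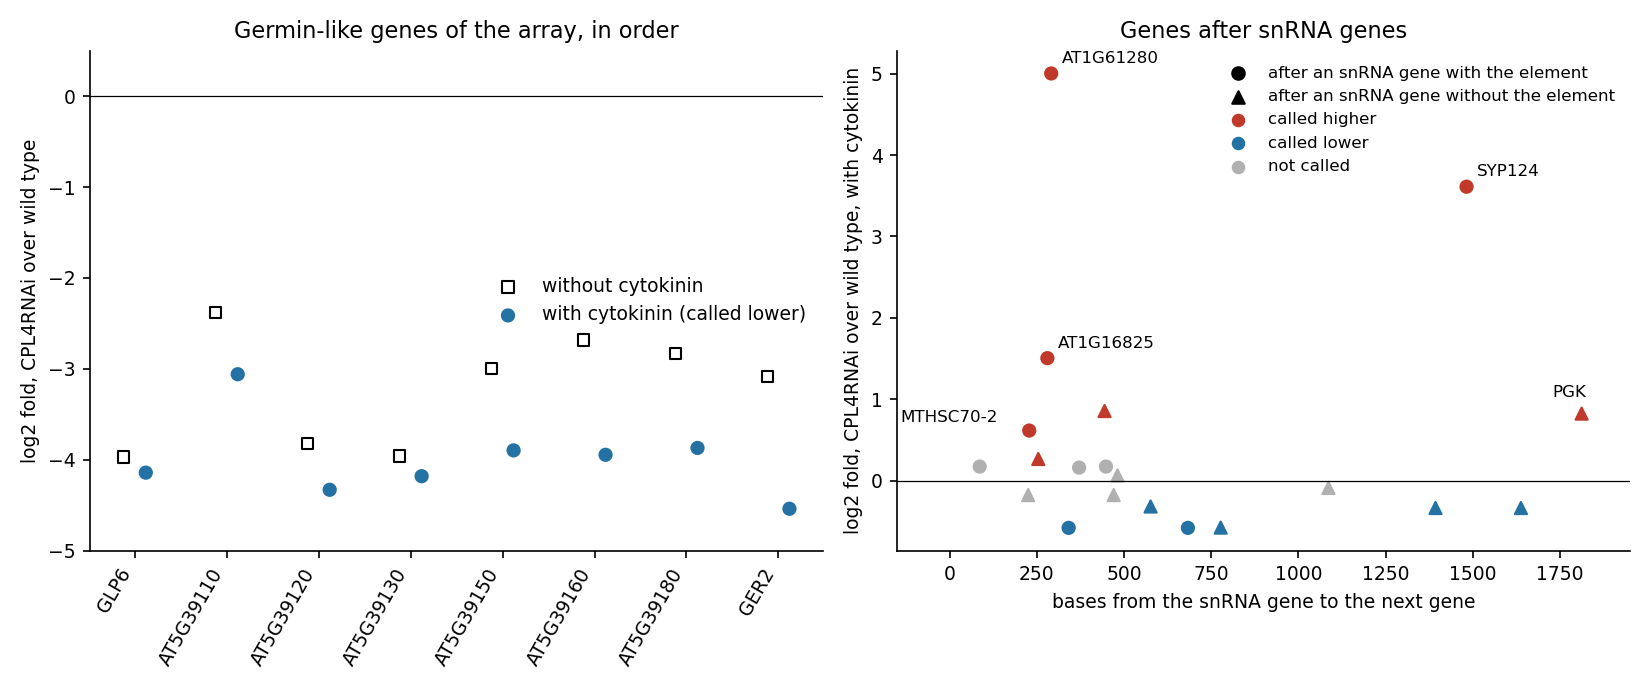
Left, log2 fold of FPKM, CPL4RNAi over wild type, for the 8 germin-like genes of the array in chromosome order, with cytokinin (blue circles, all called lower) and without (open squares). Right, the same fold with cytokinin for tested genes after snRNA genes against their distance in bases, where AT1G61280 stands at 5.00 and PGK, after an snRNA gene without the element, at 0.83; a gene after several snRNA genes is drawn once for each.

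Shoot meristem genes differed in direction. Of 22 on the list, 15 were tested, 6 were called higher and 4 lower. WUS (AT2G17950), the homeobox gene of the meristem's organising centre, was listed at 0 in wild type and had 1.28 FPKM in CPL4RNAi, which was called. CUC1 and CUC2, which set organ boundaries and are needed for STM to be expressed, went from 1.80 to 24.2 FPKM (log2 fold 3.75, SE at most 0.92) and from 11.5 to 31.3 (1.44, SE at most 0.36). ESR1, a regulator that promotes shoot regeneration, went from 1.39 to 4.54 FPKM (1.71). LAS and CLV1, which act in axillary meristems and in limiting meristem size, had log2 folds of 0.91 and 0.49. STM, a homeobox gene that maintains the meristem, went from 0.0436 to 21.9 FPKM, a log2 fold of 8.97 with an SE of 7.86, and was not called (q = 0.42 in the authors' deposited table). Without cytokinin its change from 0.0652 to 21.7 FPKM was called. CUC3 (0.0241 and 0.682 FPKM), ESR2 (0 and 0.231) and CLV3 (0 in both groups) were not tested. Called lower were PNY (-1.98), KNAT1 (-1.59), KNAT6 (-0.60) and RAP2.6L (-0.51), of which the first 3 are homeobox genes. Leaf polarity genes were called in both directions as well. AS2 (3.15), PHV (0.64) and REV (0.34), which act on the upper side of the leaf, were higher, and KAN1 (-0.84) and KAN2 (-0.87), which act on the lower side, were lower, among 7 tested.

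Of 9 tested type-A response regulators, 4 were called higher in CPL4RNAi with cytokinin and 1 lower. ARR6 went from 37.0 to 55.2 FPKM (log2 fold 0.58, SE at most 0.14), ARR7 from 33.5 to 46.7 (0.48, SE at most 0.12), ARR4 from 163 to 223 (0.45, SE 0.12) and ARR3 from 9.31 to 12.5 (0.43, SE 0.15). ARR9 went from 139 to 105 FPKM (-0.40). ARR5, ARR8, ARR15 and ARR16 had log2 folds of 0.08, -0.01, -0.14 and -0.30 and were not called, and ARR17 was not tested. Without cytokinin 3 of 7 were lower and none was higher. The difference between media, the log2 fold with cytokinin less that without it, was tested with an error worked out from several comparisons of the table and adjusted over all genes (the combined test); it was positive for 0.471% of genes. It was 1.07 for ARR7 (SE at most 0.23, adjusted p = 6.3e-04 by the combined test of the values in the authors' deposited table). For ARR4 it was 0.57 (SE 0.16, adjusted p = 0.017 by the combined test of the values in the authors' deposited table). A difference was called for these 2 of 8 type-A genes tested for it. Those of ARR3 (0.70) and ARR6 (0.56) were not called.

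Other cytokinin genes were called lower more often than higher. Among receptors, phosphotransfer proteins and type-B regulators, which carry the signal to the type-A genes, 6 of 14 tested were lower and 3 higher. The receptor AHK4 (27.9 to 44.1 FPKM, log2 fold 0.66), AHP2 (0.47) and ARR14 (1.69) were higher. The receptors AHK2 (-0.58) and AHK3 (-0.74), AHP1 (-0.88), ARR1 (-0.68), ARR2 (-0.70) and ARR11 (-1.62) were lower. Of 9 tested genes for cytokinin synthesis and activation 6 were lower and none higher, and 3 of the 6 were lower at a q-value of 0.01. LOG5 went from 17.2 to 2.22 FPKM (-2.96) and LOG1 from 2.41 to 0.364 (-2.73); the LOG enzymes release the active base. CYP735A2, a hydroxylase that makes the trans-zeatin type, had -0.82, and LOG4 went from 8.97 to 5.72 FPKM. Of 9 cytokinin inactivation genes 4 were lower and none higher. They were the cytokinin oxidase genes CKX6 (20.8 to 5.32 FPKM, -1.97), CKX4 (-1.14), CKX2 (1.74 to 1.08, -0.70) and CKX3 (185 to 126, -0.55).

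**Figure D3:**
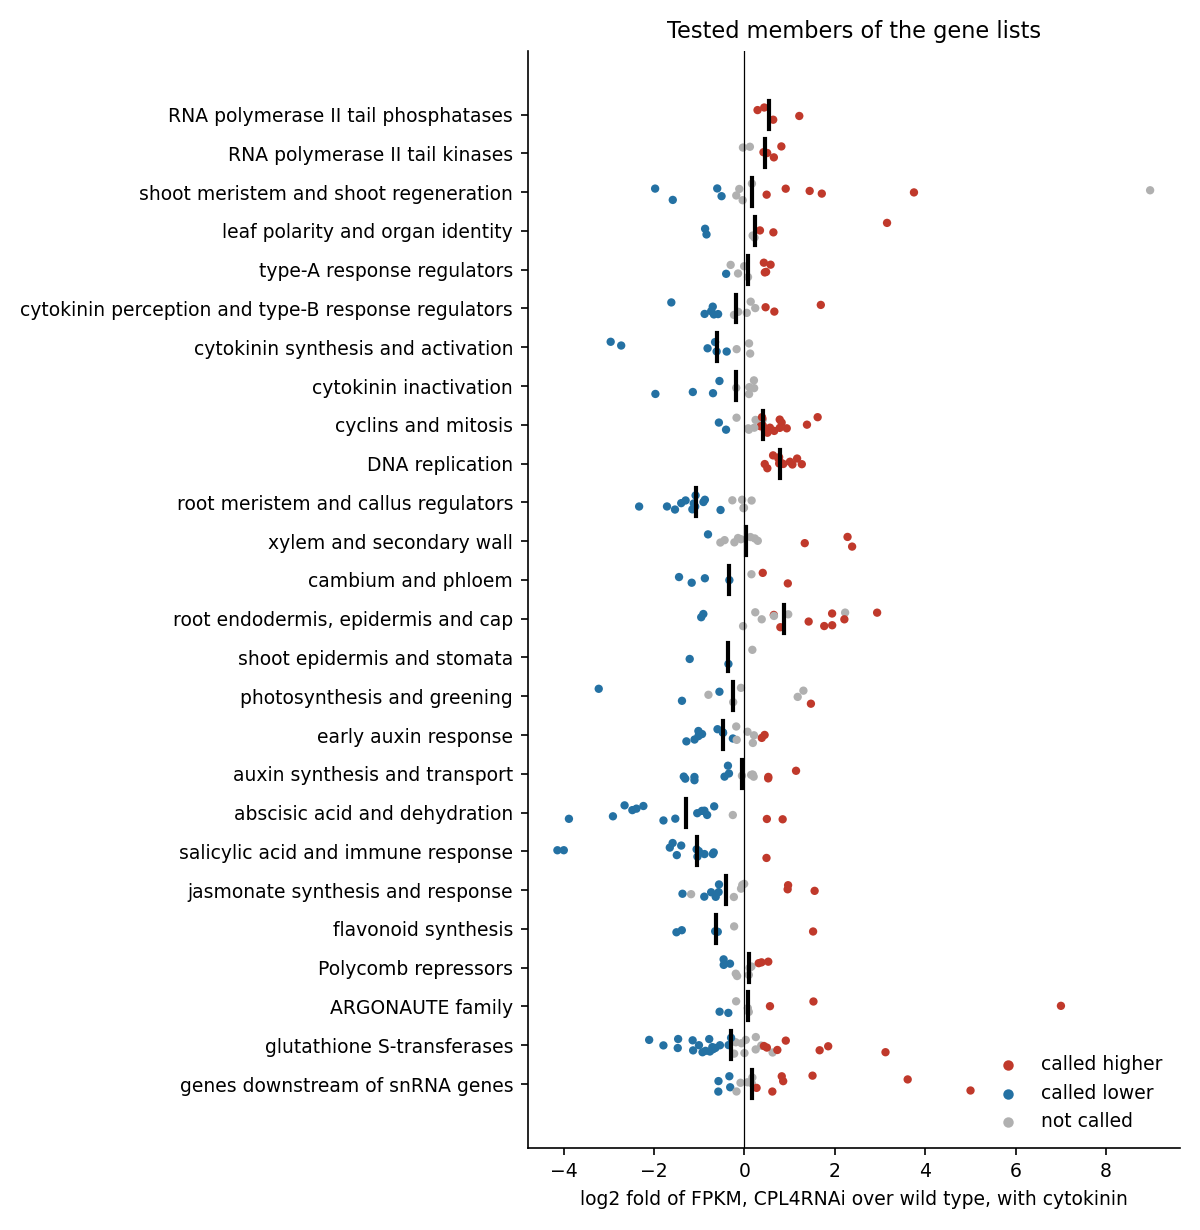
Log2 fold of FPKM, CPL4RNAi over wild type with cytokinin, for tested members of the gene lists, with the plastid and mitochondrial genome lists left out. Points are red where called higher, blue where called lower and grey where not called, and a black bar marks the median of each list. WUS, listed at 0 in wild type, counts in its median but is not drawn. All 12 DNA replication genes lie above 0, and 12 of 17 root meristem and callus regulators were called lower.

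Cell cycle genes were higher as a group. All 12 genes of DNA replication were called higher, with a median log2 fold of 0.80 beside 0.01 over all tested genes. PCNA1, the sliding clamp of the polymerase, went from 51.0 to 123 FPKM (1.27), ORC1A, of the origin recognition complex, from 1.00 to 2.25 (1.17), MCM3, of the replicative helicase, from 25.7 to 53.6 (1.06) and CDC6, a helicase loader, from 4.11 to 8.26 (1.01). Of 23 cyclins and mitotic genes 14 were higher and 2 lower. CYCD3;1, a D-type cyclin that responds to cytokinin, went from 100.2 to 308 FPKM (1.62, SE at most 0.40). The mitotic cyclin CYCB1;1 (14.8 to 38.5 FPKM) had 1.38, CYCB2;3 0.94 and the kinase CDKB1;2 0.82. CYCD3;2 (-0.57) and CYCD1;1 (-0.41) were lower. The 120 bases before 3 of the replication genes are shown because they hold an E2F motif (TTTCCCGC, TTTCGCGC, TTTGCCGC or TTTGGCGC on either strand, in capitals), the site of the factors that act at the start of DNA synthesis.

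MCM2 (chr1:16970094-16970213, plus strand): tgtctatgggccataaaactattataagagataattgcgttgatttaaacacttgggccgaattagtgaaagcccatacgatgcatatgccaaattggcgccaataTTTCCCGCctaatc
MCM4 (chr2:7130730-7130849, minus strand): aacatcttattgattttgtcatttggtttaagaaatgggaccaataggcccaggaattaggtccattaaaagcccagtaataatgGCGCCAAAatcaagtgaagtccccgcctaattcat
MCM5 (chr2:3527501-3527620, minus strand): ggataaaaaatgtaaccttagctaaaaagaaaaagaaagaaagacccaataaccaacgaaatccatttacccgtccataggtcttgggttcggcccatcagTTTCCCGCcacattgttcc

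A motif stood in this window before 5 of the 12 genes (41.7%) and before 0.751% of 27444 protein-coding genes; the forward and reverse forms of 1 motif can overlap and a gene was counted once. MCM2, MCM4 and MCM5 had log2 folds of 0.86, 0.75 and 0.77, close to the 0.80 of the list.

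Regulators of the root meristem and of callus were lower. Of 17 tested, 12 were called lower and none higher, with a median log2 fold of -1.08. WOX5, which keeps the stem cells of the root tip, had 135 FPKM in wild type and 41.2 in CPL4RNAi (-1.71, SE at most 0.42). The LBD genes that act between auxin and lateral root or callus formation were all lower: LBD29 (3.04 to 0.605 FPKM, -2.33), LBD17 (12.1 to 4.16, -1.54), LBD16 (66.0 to 25.0, -1.40) and LBD18 (33.2 to 15.3, -1.12). WOX11, PLT1, BBM, JKD, PLT7, PLT5 and SCR had log2 folds between -1.30 and -0.53. PLT2, PLT3, WOX12, SHR and WIND1 were not called.

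Genes of later root cell types were higher more often than lower. Of 16 tested markers of endodermis, epidermis and root cap, 8 were higher and 2 lower. MYB36, the regulator that starts endodermal differentiation, went from 9.68 to 74.1 FPKM (2.94, SE at most 0.72). Genes of the Casparian strip, a seal of the endodermal wall, were higher: CASP1 (1.88 to 7.23 FPKM, 1.94), CASP2 (0.684 to 2.33, 1.76) and ESB1 (3.41 to 5.35, 0.65). The root cap regulators FEZ (2.21), SMB (1.94) and BRN1 (0.79) were also higher, as was COBL9 of root hairs (1.42), whereas RHD6 (-0.96) and CPC (-0.91), both of the root hair programme, were lower. Shoot markers were scarce. Of 3 tested genes of the shoot epidermis and stomata list, PDF1 (-1.21) and ATML1 (-0.35) were lower. The stomatal genes SPCH, MUTE, FAMA, EPF1 and EPF2 had at most 0.0571 FPKM in either group, and 9 of 25 photosynthesis genes were tested, with 1 higher and 3 lower. LHCB5 was higher (0.743 to 2.06 FPKM). LHCA2 (3.13 to 0.335), LHCB4.1 (25.8 to 9.89) and PORC (5.65 to 3.85) were lower. In whole explants, a change in the number of cells of a type and a change of RNA per cell cannot be told apart.

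Xylem genes differed between the media. With cytokinin, 3 of 12 tested were higher and 1 lower. Without it, 12 of 13 were called higher, with a median log2 fold of 3.32 beside 0.03 with cytokinin. VND6, a regulator of vessel formation, went from 1.04 to 5.43 FPKM (2.38, SE at most 0.59). Its relative VND7 had 0.832 in wild type and 4.04 in CPL4RNAi (2.28, SE at most 0.56), and MYB46, which acts below them, 0.631 and 1.59 (1.33, SE 0.41). None of the genes of the list that act in wall building and cell death was called higher. XCP1, a peptidase of dying xylem cells, had 17.1 and 21.0 FPKM (0.30, not called), XCP2 13.5 and 15.8 (0.23, not called), and LAC11, a laccase of lignin formation, 5.90 and 3.38 (-0.81, called lower). Without cytokinin XCP1 went from 2.57 to 32.3 FPKM. The difference of the genotype fold between media was called for 8 of 12 xylem genes, all negative, beside 2.02% of all tested genes: XCP2 (-3.45), CTL2 (-3.40), LAC11 (-3.39), XCP1 (-3.36), CESA8 (-3.30), LAC17 (-3.57), LAC4 (-2.78) and CESA7 (-1.82). For VND6 it was -2.91 with an SE of at most 0.97 and was not called (adjusted p = 0.082 by the combined test of the values in the authors' deposited table). Of cambium and phloem genes, PXY, a receptor of the cambium, went from 29.3 to 56.9 FPKM (0.96) and WOX4 from 13.0 to 17.2 (0.41). The phloem genes SEOR2 (-1.45), SEOR1 (-1.17), APL (-0.87) and SUC2 (-0.33) were lower.

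**Figure D4:**
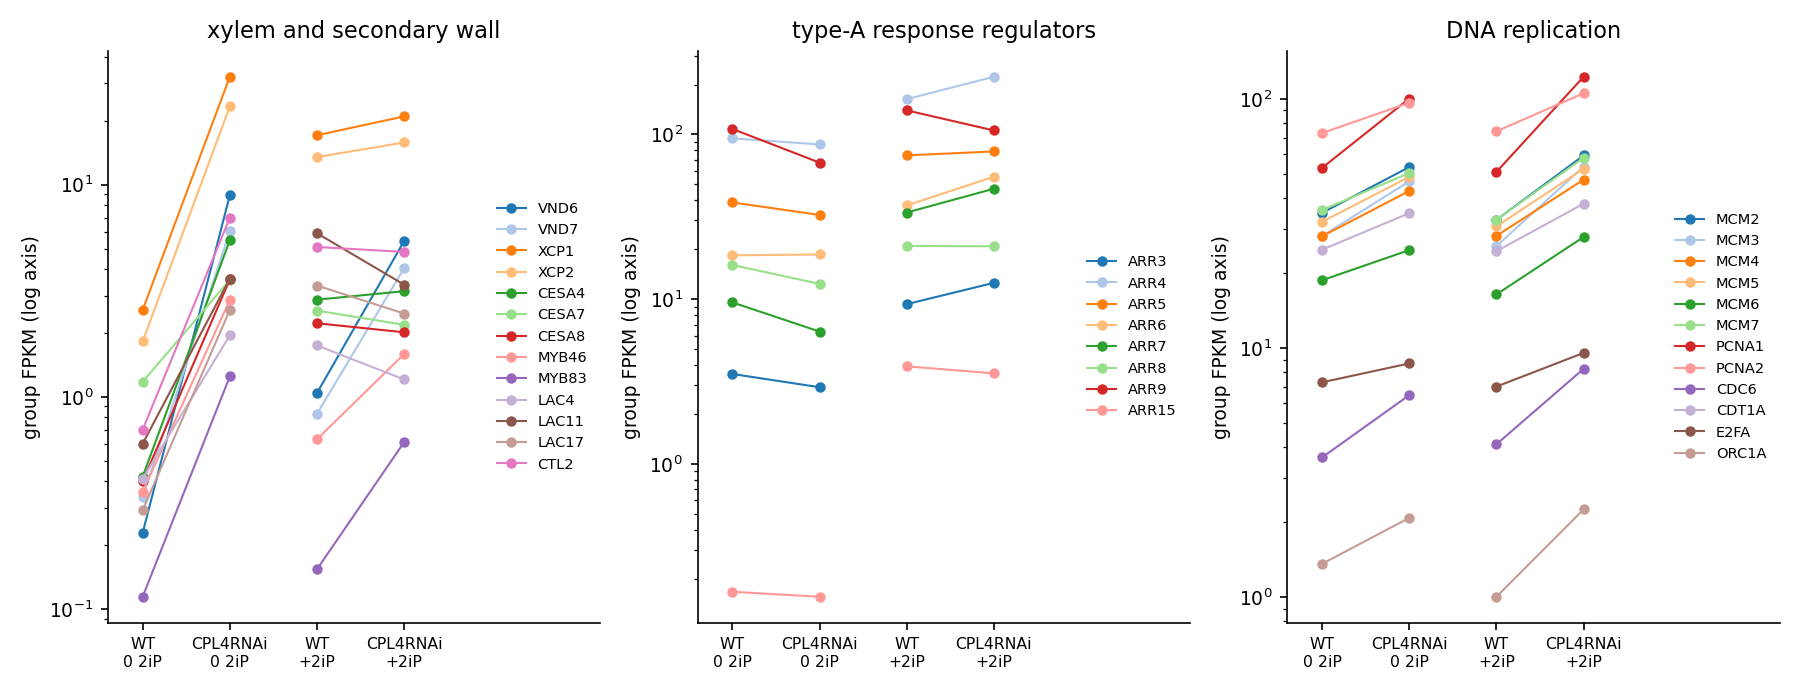
Group FPKM (log axes) of the genes of 3 lists in the 4 groups, where +2iP is 0.05 mg/L of the cytokinin; lines join the genotypes within a medium, and ARR16 and ARR17 are left out because of values at 0. In the left panel XCP1 goes from 2.57 to 32.3 without cytokinin and from 17.1 to 21.0 with it.

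Over all genes, the genotype fold was tested for a difference between the media in 18473 genes. It was called for 460 (2.49%), 87 positive and 373 negative. With errors from the genotype comparisons alone the counts were 26 positive and 119 negative. Among the 373, 232 were called higher without cytokinin. With it, 90 were higher, 179 lower and 104 not called. A negative difference favours genes higher without cytokinin and lower with it, so these counts only describe the 373. Outside the xylem list, differences were ranked among genes with an FPKM of at least 5 in a group. The largest negative ones were those of the peroxidase AT5G51890 (-3.22) and ESK1 (-3.10). With cytokinin AT5G51890 was called lower (12.1 to 5.71 FPKM, log2 fold -1.08) and ESK1 higher (1.86 to 3.03 FPKM, 0.71). The largest positive differences were those of AT3G27950, a GDSL-type lipase (3.53), AT2G16005 (1.88), IAA5 (1.76), AT5G47600 (1.75), AT3G28600 (1.66) and AT1G73600 (1.66). The 2 genotype comparisons share no library. Of 4676 genes called higher with cytokinin and tested in both media, 3363 were also higher without it (71.9%, or 78.5% of the 4282 higher without it), 8 were lower and 1305 were not called. Of 4729 called lower, 3448 were also lower without it (72.9%, or 83.7% of 4121), 39 were higher and 1242 were not called. For 229 of the 460 differences only an upper bound of the SE could be had. When every gene with such a bound was left out and p-values were adjusted over the other 17001 genes, 22 positive and 129 negative differences were called.

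**Figure D5:**
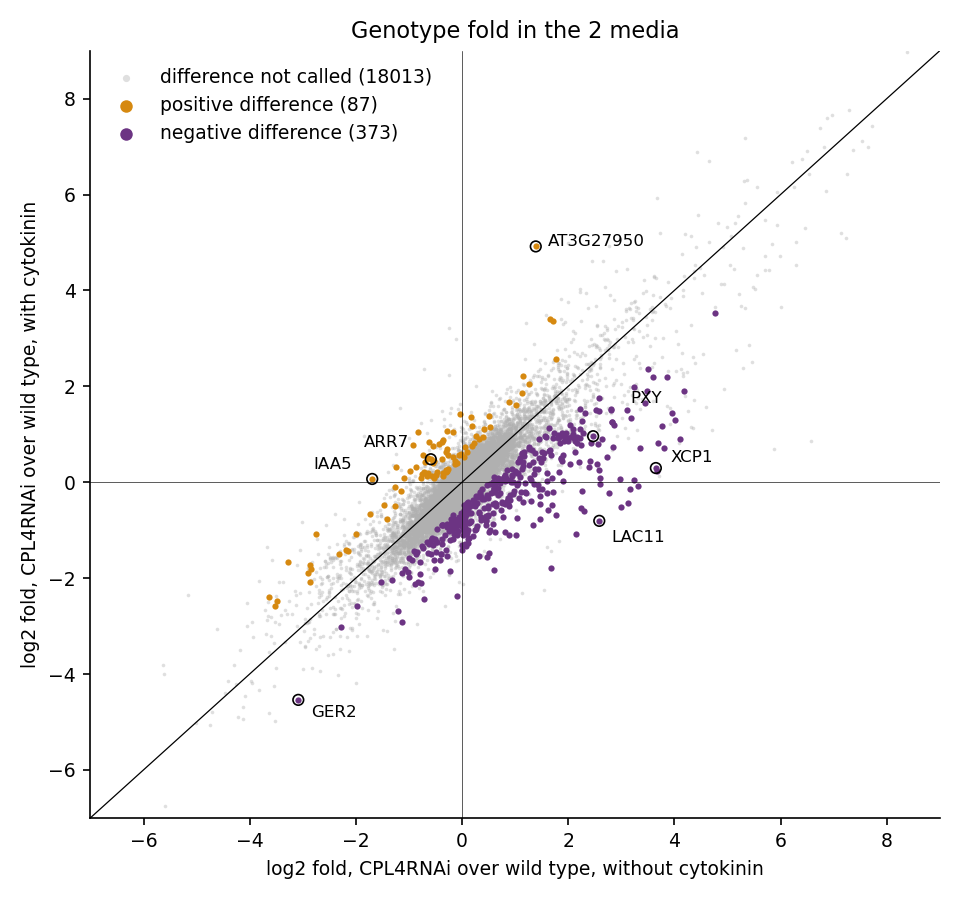
Log2 fold of FPKM, CPL4RNAi over wild type, without cytokinin (x axis) and with it (y axis) for the genes tested for a difference; the diagonal marks equal folds. The 373 negative differences (purple) lie below the diagonal and the 87 positive ones (orange) above it.

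In the lists of abscisic acid, salicylic acid, auxin and jasmonate genes, more genes were called lower than higher. Of 16 tested genes of abscisic acid and dehydration, 13 were lower and 2 higher, with a median log2 fold of -1.29. RD29A, a gene induced by drying and cold, went from 6.84 to 0.464 FPKM (-3.88, SE at most 0.96). The phosphatase genes HAI2 (28.0 to 3.73 FPKM, -2.91), HAI3 (-2.65) and HAI1 (64.9 to 11.6, -2.48), which restrain abscisic acid signalling, were lower, as was NCED3, the gene of a limiting step of its synthesis (-2.39). COR47 (0.50) and ERD10 (0.85), both dehydrins, were higher. The core ACGTG of the abscisic acid response element, searched on both strands, stood in the 120 bases before 11 of all 21 genes of the list (52.4%), before 5 of the 13 called lower (38.5%) and before 14.1% of 27444 protein-coding genes. The share among the genes called lower was thus below that of the whole list. It is part of other motifs such as the G-box. The first 3 of those 5 are shown because they hold it, in capitals.

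HAB1 (chr1:27389828-27389947, plus strand): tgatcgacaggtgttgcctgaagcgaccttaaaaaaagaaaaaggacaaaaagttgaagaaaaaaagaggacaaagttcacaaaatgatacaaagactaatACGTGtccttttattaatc
PP2CA (chr3:3585851-3585970, minus strand): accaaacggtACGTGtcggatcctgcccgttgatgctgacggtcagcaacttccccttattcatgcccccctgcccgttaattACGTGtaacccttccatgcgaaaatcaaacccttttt
HAI2 (chr1:2282829-2282948, minus strand): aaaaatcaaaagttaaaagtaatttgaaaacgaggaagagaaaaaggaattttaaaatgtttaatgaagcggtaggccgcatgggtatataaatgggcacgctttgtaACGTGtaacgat

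HAB1 and PP2CA, which are also phosphatases of this pathway, had log2 folds of -0.83 and -0.88.

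Immune genes tied to salicylic acid were called in 13 of 13 tested, 12 lower and 1 higher, with a median log2 fold of -1.06. PR5 went from 6.95 to 0.395 FPKM (-4.14, SE at most 1.02). PR2, a glucanase, had 8.33 in wild type and 0.522 in CPL4RNAi (-4.00, SE at most 0.99). WRKY70 (153 to 48.6 FPKM, -1.65) and SARD1 (67.1 to 22.3, -1.59), regulators of the pathway, ICS1, its main synthesis gene (-1.06), and NPR1, its receptor (-0.88), were lower. NIMIN1, an inhibitor of NPR1, was higher (25.3 to 35.5 FPKM, 0.49). PR1 was near 0 in both groups. Early auxin response genes had 10 of 17 lower and 2 higher. GH3.1 (-1.28), IAA14 (-1.10), IAA3 (-1.02), GH3.2 (-1.02) and IAA2 (261 to 130.3 FPKM) had the largest folds below wild type, and IAA17 (0.45) and IAA1 (0.38) were higher. Of auxin synthesis and transport genes, 7 of 15 were lower, among them YUC6 (-1.34), LAX1 (-1.31), YUC3 and YUC8 (both -1.11), and 3 were higher, among them PIN6 (5.52 to 12.2 FPKM) and TAA1 (0.53). Jasmonate genes had 6 of 14 lower and 3 higher. VSP2 (3.40 to 9.97 FPKM, 1.55) and VSP1 (7.29 to 14.2, 0.97), storage proteins induced by jasmonate, and JAZ10 (0.96) were higher, and JAZ6 (-1.37), OPR3 (-0.89) and MYC2 (-0.74) were lower.

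Of glutathione S-transferases, enzymes of detoxification, 17 of 33 tested were lower and 7 higher. GSTF2 went from 999 to 232 FPKM (-2.11), GSTF3 had -1.79, GSTF14 went from 0.665 to 5.78 (3.12) and GSTU25 from 62.7 to 227 (1.85). Flavonoid genes had 4 of 6 lower, with MYB12 (-1.50) and FLS1 (-1.39) the farthest below wild type, and 1 higher, TT7 (1.52). Of Polycomb genes, whose products keep genes silent, 3 of 11 were higher (MSI1, FIE and BMI1A at 0.53, 0.38 and 0.32). Another 3 were lower (SWN, LHP1 and DRIP1 at -0.46, -0.46 and -0.32). Both shares are near the background of 24.7%. Among ARGONAUTE genes, AGO6 (1.53) and AGO3 (0.57) were higher beside AGO9, and AGO10 (-0.55) and AGO7 (-0.36) were lower. Plastid genes had 22 of 61 tested higher and 1 lower, with 12 higher at a q-value of 0.01, and mitochondrial genes 18 of 54 higher and 1 lower.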

How the data were processed

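RNA of 12 samples in 4 groups of 3 was depleted of ribosomal RNA and sequenced from both ends, strand-specifically, with 125 nt reads, per the labels' protocols. Per the submitters' processing notes, the tools were bcl2fastq 2.17.1.14, TopHat2 2.0.14 and Cuffdiff 2.2.1.3 with the TAIR10 genome; their options are not given in the sources used here. The authors' deposited table gives FPKM per group and a p-value and q-value for each of 6 pairwise comparisons, per the file headers. It holds 33557 features, with no values per replicate, so nothing was fitted over samples, and depth is unknown. Adjusting the 115069 deposited p-values together by Benjamini-Hochberg gave the deposited q-values to within 5.3e-07. The deposited column of log2 folds was damaged and not used.

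Log2 folds were computed from group FPKM with no pseudocount. For standard errors, the absolute log2 fold was divided by the normal quantile that matches the deposited p-value. The difference of the genotype fold between media used the variance solved from pairs of comparisons that hold all 4 groups (p-values at or under 0.95, pairs within 10.0%, 517 genes left out), or the upper bound at the p floor, with normal p-values adjusted over 18473 genes. Precision was judged from the implied errors: the median distance from an uncalled fold to its 95% bound was 0.27.

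The 28 gene lists and this comparison were chosen with earlier results of these data known. Named were CPL1 to CPL5, WUS, CLV3, STM, the CUC genes, ESR1, ESR2, KNAT1 and the type-A regulators, the 10 largest called folds each way among genes that reach 5 FPKM in one group and exceed 0 in the other, 5 genes listed at 0 in each group, 4 called members of each list and 6 differences between media in each direction. Other list members and all snRNA genes were named after their values were seen. AGO8 was not analysed here. One gene of the auxin transport list is not reported here by name. Gene class and sequence came from RefSeq TAIR10.1, which has a gene of the same identifier for 32809 features (97.8%), and 28625 of 28626 loci compared lay on the same chromosome and overlapped. Alternative settings were a q-value of 0.01, a 2-fold minimum, an FPKM minimum of 1, adjustment within the comparison, protein-coding nuclear genes alone, a pseudocount of 1, recentring and 2 other sources of the standard error. Software was SciPy 1.17.1, Biopython 1.88, matplotlib 3.10.9, pandas 2.3.3 and numpy 2.4.6 under Python 3.11.15.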

Additional observations from a re-analysis of the deposited data

Results flagged for a closer look

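The genotype fold differed between the media, by the test of the difference itself, for 35 genes among those named, the gene lists and the snRNA genes. The values are log2 differences, the fold with cytokinin less the fold without it; 16 were positive and 19 negative, and 21 rest on an upper bound of the standard error. In the xylem list they were -3.57 for LAC17, -3.45 for XCP2, -3.40 for CTL2, -3.39 for LAC11, -3.36 for XCP1, -3.30 for CESA8, -2.78 for LAC4 and -1.82 for CESA7. In the cambium list they were -1.51 for PXY and -0.78 for ATHB8, and outside the lists -3.22 for AT5G51890 and -3.10 for ESK1. GER2 (AT5G39190) of the germin array had -1.46, lower in both media. Among cytokinin genes the differences were 1.07 for ARR7, 0.57 for ARR4, 0.69 for CKX5 and -1.20 for ARR11. Among auxin response genes they were 1.76 for IAA5, which was lower without cytokinin and not called with it, and 0.99 for GH3.6. The stress gene KIN2 and the immune gene PBS3, both lower without cytokinin, had positive differences of 1.07 and 0.83. In their lists a difference was called for few genes, 1 of 15 tested for abscisic acid and 2 of 13 for salicylic acid. NIMIN1 had 0.86, GSTU25 0.72, the root cap gene BRN1 1.23 and the flavonoid gene CHS -0.81. Other positive differences were 3.53 for AT3G27950, 1.88 for AT2G16005, 1.75 for AT5G47600, 1.66 for AT3G28600 and 1.66 for AT1G73600. The mitochondrial ribosomal RNA gene RRN18 had 1.19. Without cytokinin it had 348 FPKM in wild type and 190 in CPL4RNAi, and with cytokinin 370 and 463. The RNA was depleted of ribosomal RNA, and the bearing of that step on this value was not tested. Of 9 snRNA genes tested 4 had negative differences: U12 with -0.90, U1.5 with -0.62, U2.3 with -0.57 and U2.6 with -0.54.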

How the results depend on the processing

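Counts of called genes moved by less than 1.5 times with an FPKM minimum of 1, with adjustment within the comparison and for protein-coding nuclear genes alone. A 2-fold minimum left 1129 higher and 1390 lower. At a q-value of 0.01 the counts higher were 2 for tail phosphatases, 1 for cambium and phloem, 12 for the plastid genome and 1 for lncRNA genes. The counts lower at that threshold were 1 for leaf polarity, 3 for cytokinin synthesis, 1 for cyclins and mitosis, 1 for shoot epidermis and 1 for ARGONAUTE genes. With adjustment within the comparison the counts lower were 2 for xylem, 3 for the plastid genome and 2 for the mitochondrial genome. Differences between media numbered 22 positive and 129 negative with solved errors alone, and 26 positive and 119 negative with errors from the genotype comparisons alone. The first of these settings tests 17001 genes, and the cause of the other change was not tested. Recentring shifted all log2 folds by 0.02 and reversed none of the 147 folds of named genes. That shift is below the smallest called log2 fold, 0.25 in size, so it could reverse no call. A pseudocount of 1 cannot change the direction of a fold, so it was no test of direction. That pseudocount moved 5 list medians, to -0.42 for cytokinin synthesis, -0.89 for root meristem and callus, 0.51 for endodermis, epidermis and cap, -1.13 for abscisic acid and -0.26 for jasmonate. Of the named genes, 11 lost their call at 0.01, among them CPL1, CPL2, ARR3, KAN1 and SYP124, and XCP1 gained one with adjustment within the comparison (adjusted p = 0.037 by Benjamini-Hochberg from the p-values the authors deposited). No paired analysis was possible because the columns hold 1 value per group and no replicate numbers. Leaving out a replicate was not run for the same reason. The unknown depth limits what can be said of genes not called.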

Other observations

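Gene families grouped by the product name in the annotation, after the data had been seen, gave further counts for the fold of CPL4RNAi over wild type with cytokinin. They were read against a background of 24.7% higher and 24.7% lower. Core histones were mostly higher (37 of 50, with 5 lower, median log2 fold 0.74). Proteasome subunits were higher in 22 of 26 and tubulins in 9 of 13, with none lower in either family. Cytosolic ribosomal proteins were higher in 124 of 284 and lower in 21 (10 at a q-value of 0.01), with a median of 0.25. Without cytokinin 35 of 281 of them were higher and 29 lower, while the difference between media was called for 1 of 281. Resistance genes of the TIR and NB-LRR kinds, which code for intracellular immune receptors, were lower in 70 of 106 and higher in 11 (median -0.70), and without cytokinin lower in 71 and higher in 9. Of 69 genes of proteins with the DUF295 domain 19 were tested, of which 6 were higher and 1 lower. The share higher was 31.6%, beside the background of 24.7%. The median log2 fold of these 19 was 4.02, but most of them were not called. It was taken with no pseudocount, which makes folds large where wild type is near 0. AT5G54560, of this family, had 0.0822 FPKM in wild type. Without cytokinin 10 of 18 tested were higher and 1 lower, with a median of 4.16. Heat shock proteins had 18 of 46 higher and 8 lower, expansins 7 of 19 and 4, aminoacyl-tRNA synthetases 14 of 51 (9 at a q-value of 0.01) and 6, and proteins named late embryogenesis abundant, a name that also covers a hydroxyproline-rich family, 18 of 49 (11 at a q-value of 0.01) and 10. Germin-like and cupin genes over the whole genome had 4 of 29 higher and 15 lower, and 8 of the 15 are those of the tandem array. Without cytokinin 10 of 31 were higher and 11 lower. The other families had counts of both signs: WRKY factors with 16 of 56 higher and 20 lower, class III peroxidases with 15 of 48 and 14, F-box proteins with 50 of 193 and 42, cytochrome P450 enzymes with 33 of 116 and 46, UDP-glycosyltransferases with 31 of 93 and 35, and leucine-rich repeat receptor kinases with 40 of 123 and 38.

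Noncoding genes were called lower more often than higher. Of 138 tested lncRNA genes 41 were lower (29.7%) and 3 higher. Of 113 genes annotated as other noncoding RNA 49 were lower (43.4%) and 14 higher (12.4%), whereas protein-coding genes had 24.8% lower and 25.0% higher. Levels differ between the classes, so the counts were also taken at like levels. Where the higher group reached 20 FPKM, 11 of 13 lncRNA genes and 31 of 47 other noncoding genes were lower, beside 26.2% of 8343 protein-coding genes. Between 5 and 20 FPKM 19 of 47 lncRNA genes were lower, beside 26.4% of 6610 protein-coding genes. Under 5 FPKM, where 78 of the 138 tested lncRNA genes lie, 11 were lower (14.1%) and 1 higher (1.28%). Of 3583 protein-coding genes at that level 18.4% were lower and 18.8% higher. The share of lncRNA genes lower was thus below that of protein-coding genes there, though lower calls still outnumbered higher ones. Of other noncoding genes 10 of 33 were lower between 5 and 20 FPKM and 8 of 33 under 5 FPKM. Without cytokinin 35 of 136 lncRNA genes were lower and 2 higher. Of 17 tested genes that host microRNAs, 3 were lower (17.6%) and 2 higher (11.8%), both below the background of 24.7%. MIR156c went from 40.7 to 3.99 FPKM (log2 fold -3.35) and was called lower, as were MIR162a (-1.60) and MIR824 (-1.31). MIR414 (0.55) and MIR167d (0.96) were called higher. MIR319b had 5.09 FPKM in wild type, was listed at 0 in CPL4RNAi and was not called. These values are of the host transcripts, not of mature microRNAs.

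Genes with a high level were called higher more often. Of 1597 tested genes that reached 100 FPKM in either group, 48.0% were higher and 22.3% lower, whereas between 5 and 20 FPKM 19.5% were higher and 26.5% lower.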
